A study of Mus musculus with 6 samples.

Results

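The 10 genes described here encode the microfibrils and elastic fibres of the extracellular matrix. They are the latent TGF-beta binding proteins (Ltbp1, Ltbp2, Ltbp3 and Ltbp4), the fibrillins (Fbn1 and Fbn2), elastin (Eln) and the assembly proteins fibulin-4 (Efemp2), fibulin-5 (Fbln5) and Emilin1. They were chosen by gene name for these roles, with earlier results of these data known, and all 10 were found among the 54532 genes of the table. RNA was sequenced from 6 libraries of cells labelled as mouse primary lung fibroblasts, 3 titled NC and 3 titled calumenin KD. The descriptions name these libraries WT and KO, and NC is not spelled out. How calumenin was depleted, and the strain and age of the mice, were not stated in the labels. Calumenin is a calcium-binding protein of the secretory pathway, and the stated purpose was to learn how its loss affects senescence and fibrosis signalling.

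Fibrillins polymerise into microfibrils, the scaffold on which elastin is laid down, and fibulins and lysyl oxidases guide and crosslink that elastin. LTBPs are relatives of the fibrillins: most hold latent TGF-beta in a secreted complex and anchor it to the matrix, where integrins or proteases can release the growth factor. In lung, this system gives the alveolar wall its recoil and sets how much TGF-beta is stored around fibroblasts.

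Among the 6 libraries the 10 genes fell into 3 sets. Ltbp4, Ltbp3 and Efemp2 rose in the KD libraries. Ltbp1, Ltbp2, Fbn1 and Emilin1 did not pass the test with all 6 libraries, although none of them had overlapping groups. Fbln5 was low and was lower in KD, and Eln and Fbn2 had no reads in any library. The differences were tested with limma on log2(FPKM + 1), where FPKM is the fragment count scaled to gene length and to a library size. The fit took the 12299 genes whose mean reached 1 FPKM, and p-values were adjusted over all of them. Of the 7 members above that level 3 rose and 0 fell, while 10.9% of all tested genes rose and 13.6% fell. Groups without overlap lay higher in KD for 5 of the 7 and lower for 2, against 21.3% and 22.9% of all tested genes. The median log2 difference was 0.47 over these 7 members and 0.01 over all tested genes.

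Calu itself had 220 to 227 FPKM in NC and 12.6 to 14.6 FPKM in KD. The libraries held 15907164 to 18312888 reads, recovered from FPKM and gene length, and detection limits cover counting error only. KD1 stood apart: a chi-square of its reads against those of KD2 and KD3, divided by its degrees of freedom, was 17.5 and 29.1, and it was 2.31 to 4.47 for the other replicate pairs. The 11 fibroblast markers summed to 1521 to 1546 FPKM in NC and to 1757 to 1797 in KD, without overlap, and 8 had a mean of at least 1 FPKM. Among them Fn1 (173 FPKM in NC and 295 in KD), Col1a1 (149 and 284) and Col1a2 (403 and 450) had higher means in KD, and Vim (602 and 559) and Col3a1 (24.6 and 10.9) lower ones. Thy1 (0.126 and 0.104 FPKM) and Dcn (0.0108 and 0 FPKM) were near 0 and Lum was at 0. Summed markers of smooth muscle and myofibroblasts came to 16.5 to 17.9 FPKM in NC and 17.6 to 20.3 in KD, nearly all of it Smtn and Des, with Acta2 and Myh11 near 0. The 7 endothelial markers summed to at most 0.259 FPKM, the 8 epithelial markers to 20.4 to 25.3 FPKM in NC and 12.3 to 22.5 in KD, mostly Aqp5, and the 8 leukocyte markers to 9.48 to 10.3 FPKM in NC and 5.44 to 8.70 in KD. The 5 mesothelial markers summed to 13.8 to 14.9 FPKM in NC and 10.7 to 14.3 in KD, nearly all of it Msln. Ptprc had 0.00908 FPKM in NC and 0.00659 in KD, and the part of these marker levels in the results was not tested. Fewer cells of a type and less RNA per cell cannot be told apart in such data. The labels do not tell whether the 3 libraries of a group are separate cultures, so the spread behind each p-value may be technical.

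The RefSeq promoter windows of the genes that rose, and of Fbln5, are shown because these genes moved with the group; the capitals mark the GC box, the letters GGGCGG on either strand. Each run is the part of the 250 bases before the RefSeq start site nearest to the deposited gene start that lies outside the deposited gene, in build GRCm38.p6, read 5′ to 3′.
Ltbp4, chr7:27337693-27337862, minus strand: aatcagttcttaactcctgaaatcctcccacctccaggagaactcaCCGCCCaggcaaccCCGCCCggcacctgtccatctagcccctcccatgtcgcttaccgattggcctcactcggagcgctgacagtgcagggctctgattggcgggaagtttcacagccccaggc
Ltbp3, chr19:5740650-5740899, plus strand: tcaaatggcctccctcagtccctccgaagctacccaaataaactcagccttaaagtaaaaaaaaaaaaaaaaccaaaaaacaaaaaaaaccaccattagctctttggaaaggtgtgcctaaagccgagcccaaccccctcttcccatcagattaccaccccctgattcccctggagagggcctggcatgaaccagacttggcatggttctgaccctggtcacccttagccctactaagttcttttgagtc
Efemp2, chr19:5473696-5473945, plus strand: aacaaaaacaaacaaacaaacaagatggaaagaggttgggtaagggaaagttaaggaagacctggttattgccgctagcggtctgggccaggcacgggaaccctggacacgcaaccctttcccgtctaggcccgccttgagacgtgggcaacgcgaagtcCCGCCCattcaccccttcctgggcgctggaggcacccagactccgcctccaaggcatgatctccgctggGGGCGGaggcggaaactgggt
Fbln5, chr12:101819120-101819369, minus strand: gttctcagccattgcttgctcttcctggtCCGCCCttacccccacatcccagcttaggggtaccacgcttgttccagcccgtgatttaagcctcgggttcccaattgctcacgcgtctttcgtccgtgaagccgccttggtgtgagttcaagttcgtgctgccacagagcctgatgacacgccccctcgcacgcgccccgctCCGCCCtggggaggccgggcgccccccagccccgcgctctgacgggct

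Windows were found for 8 of the 10 genes. Those of Fbn1 and Emilin1 lie wholly inside the deposited gene, with RefSeq start sites 1555 and 384 bases from its start. The GC box was present in the full 250-base windows of 5 of the 8 and in 32.7% of 32851 windows of the same length. The 5 were Ltbp4 (3 matches), Ltbp2, Efemp2 and Fbln5 (2 each) and Fbn1 (1). The Ltbp3 window held 0 GC boxes and had a GC content of 47.2%, below the median of 52.4%, whereas Ltbp4, Efemp2 and Fbln5 had 64.4%, 59.2% and 65.2%. A SMAD-binding element, searched as CAGAC, was found in 5 of the 8 (Ltbp1, Ltbp2, Ltbp3, Efemp2 and Emilin1) and in 42.2% of all windows. The CCAAT box was found in 3 (Ltbp1, Ltbp4 and Fbln5) and in 33.8% of all windows. The TATA box, searched as TATAAA, was in 0 of the 8 and in 12.4% of all windows. The AP-1 site, searched as TGACTCA, was in 0 of the 8 and in 4.46% of all windows. The TEAD site, searched as GGAATG, was in 0 of the 8 and in 12.6% of all windows. Both strands were searched, matches of a motif could overlap, and a match describes the letters only. None of these motifs was in all 3 windows of the genes that rose: Ltbp4 and Efemp2 held GC boxes and Ltbp3 did not, and Ltbp3 and Efemp2 held the SMAD-binding letters and Ltbp4 did not.

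**Figure D1:**
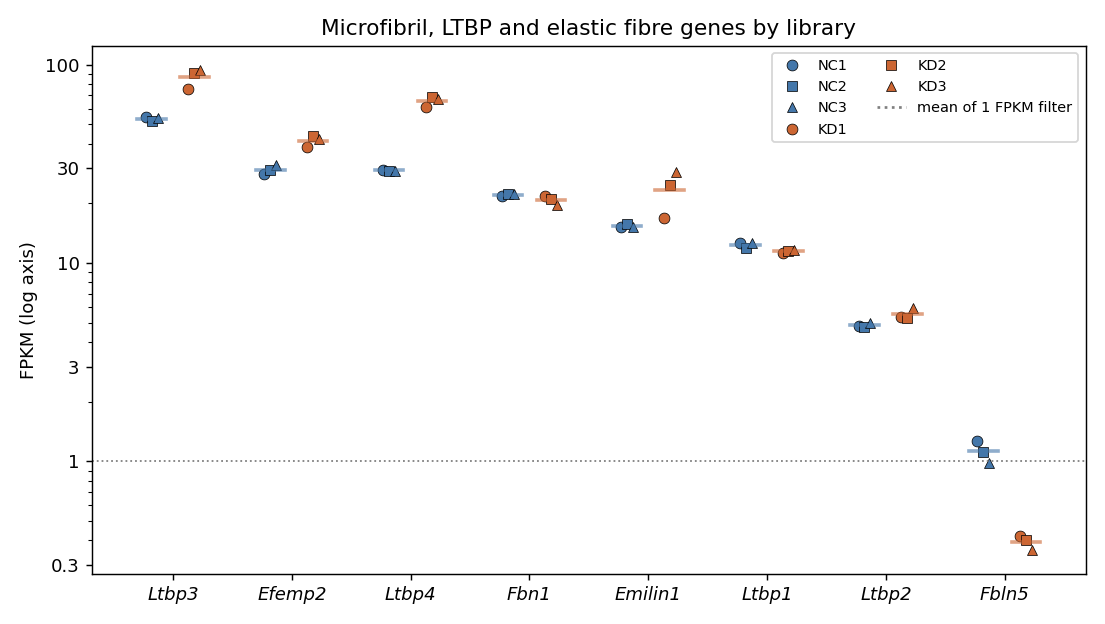
FPKM (log axis) of the 8 members with reads, ordered by their NC mean, with 1 point per library (blue NC, orange KD) and a bar at each group's mean. Ltbp4, Ltbp3 and Efemp2 are higher in all 3 KD libraries, Emilin1 in KD1 (16.8 FPKM) lies close to NC, and Fbln5 lies around the filter of 1 FPKM; Eln and Fbn2, at 0, are not drawn.

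Ltbp4 showed the largest log2 difference of the 7 tested members. It encodes an LTBP that is needed for elastic fibre formation in lung and that binds latent TGF-beta. Ltbp4 (ENSMUSG00000040488, minus strand of chromosome 7, 27305136 to 27337692 in mm10) had 29.5, 29.2 and 29.2 FPKM in NC1, NC2 and NC3 and 61.0, 69.1 and 67.4 FPKM in KD1, KD2 and KD3. The 3 NC libraries lay within 0.343 FPKM of each other and every KD library was at least 2 times the NC mean, KD1 being the lowest of the 3 (2.08 times). The means were 29.3 ± 0.19 and 65.9 ± 4.30 FPKM (SD, n = 3 each), a ratio of 2.25, and the log2 difference was 1.14 (SE 0.06, limma adjusted p = 0.000106).

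Ltbp3, which encodes an LTBP that escorts latent TGF-beta out of the cell and is known for its part in bone and tooth development, was the most abundant member per length. Ltbp3 (ENSMUSG00000024940, plus strand of chromosome 19, 5740904 to 5758532) had 54.5, 52.0 and 54.2 FPKM in NC1 to NC3 and 75.5, 90.3 and 94.1 FPKM in KD1 to KD3. The groups were apart, and KD1 was again the KD library closest to NC. The mean rose from 53.6 ± 1.32 to 86.7 ± 9.84 FPKM (SD, n = 3), 1.62 times, with a log2 difference of 0.68 (SE 0.09, limma adjusted p = 0.00308).

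Ltbp1, the widely expressed LTBP that tethers latent TGF-beta to fibrillin and fibronectin, was slightly lower in KD but did not pass the test. Ltbp1 (plus strand of chromosome 17, 75005568 to 75392512) had 12.6, 11.9 and 12.7 FPKM in NC1 to NC3 and 11.2, 11.5 and 11.7 FPKM in KD1 to KD3. All KD values lay below all NC values by a margin smaller than the spread within NC. The log2 difference was -0.11 (SE 0.05, limma adjusted p = 0.195). The call depended on how the rest of the genome was treated: with the median of each chromosome removed the difference was -0.27 (adjusted p = 0.0126), where 10.9% of all genes were called lower and the 627 chromosome 17 genes had a median of 0.17. Once a trend with GC content and length had been taken out it was -0.14 (adjusted p = 0.0400), where 18% of all genes were called lower.

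Ltbp2, which unlike its relatives does not bind latent TGF-beta and associates with fibrillin microfibrils, was the lowest of the 4 LTBPs. Ltbp2 (minus strand of chromosome 12, 84783212 to 84876532) had 4.85, 4.78 and 5.003 FPKM in NC1 to NC3 and 5.34, 5.29 and 5.94 FPKM in KD1 to KD3. The KD values were all above the NC values, KD3 standing apart from the other KD libraries. The log2 difference of 0.15 (SE 0.07) did not pass (limma adjusted p = 0.151).

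Summed over the 4 genes the LTBP transcripts were higher in each KD library, and Ltbp4 was a larger part of them. The gain lay in Ltbp3 and Ltbp4, not in Ltbp1. The FPKM summed over the 4 genes was 101, 98.0 and 101 in NC1 to NC3 and 153, 176 and 179 in KD1 to KD3. The sum thus went from 100.2 ± 1.91 to 169 ± 14.3 FPKM (SD, n = 3), a ratio of 1.69. Ltbp4 made up 29.3% ± 0.46 of the sum in NC and 38.9% ± 1.14 in KD (SD, n = 3). The share of Ltbp3 was 53.5% ± 0.299 and 51.0% ± 1.60, and on the FPKM scale it was the most abundant LTBP in each library. In reads, which weight long genes, the Ltbp3 share was 43.8%, 43.4% and 43.7% in NC1 to NC3 and 41.4%, 43.4% and 44.6% in KD1 to KD3. There the groups overlapped, the mean changed by -0.464 percentage points, and KD1 had more reads for Ltbp4 (7293) than for Ltbp3 (7251). The share of Ltbp1 went from 12.4% ± 0.177 to 6.78% ± 0.459 and that of Ltbp2 from 4.87% ± 0.0874 to 3.27% ± 0.248, with little change in their own levels. On the FPKM scale the groups did not overlap for any of these 5 quantities. A two-sided exact permutation test over libraries gave p = 0.1 for each, unchanged by Benjamini-Hochberg adjustment over 6 quantities, which is the smallest value that 3 against 3 allows. Since the 4 shares add up to the whole, they are not independent of each other.

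**Figure D2:**
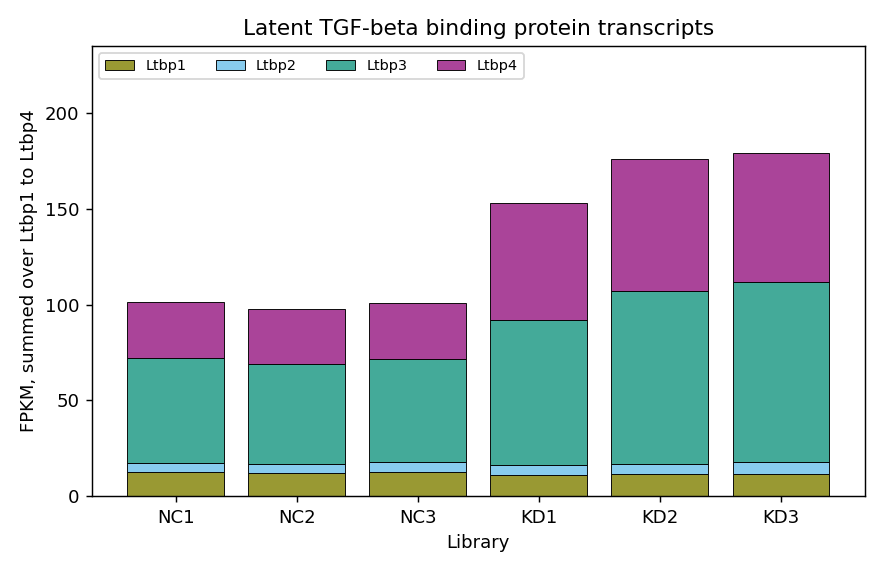
Summed FPKM of the 4 LTBP genes in each library, stacked by gene. The bars reach 98.0 to 101 FPKM in NC and 153 to 179 FPKM in KD, and the gain lies in the Ltbp3 and Ltbp4 segments.

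The ligands that LTBPs carry did not pass the test. Tgfb1, Tgfb2 and Tgfb3, which encode the 3 TGF-beta isoforms, summed to 10.1, 10.5 and 11.02 FPKM in NC1 to NC3 and to 9.45, 12.2 and 12.9 FPKM in KD1 to KD3. KD1 was below all NC libraries, and KD2 and KD3 were above them. Tgfb1 (adjusted p = 0.966) and Tgfb3 (0.182) did not pass limma, and Tgfb2 reached at most 0.142 FPKM in any library. Without KD1, Tgfb3 passed as higher, where 20.9% of all genes were called higher.

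Fbn1, which encodes the main fibrillin of adult microfibrils, was expressed at nearly the same level in both groups. Fbn1 (minus strand of chromosome 2, 125300594 to 125507993) had 21.9, 22.3 and 22.3 FPKM in NC1 to NC3 and 21.8, 21.0 and 19.6 FPKM in KD1 to KD3. NC1 and KD1 were almost equal, and KD3 was the lowest library. The log2 difference was -0.09 (SE 0.06, limma adjusted p = 0.321). With a trend with GC content and length taken out and KD1 left out it passed as lower (-0.16, adjusted p = 0.0232), where 20.2% of all genes were called lower. Fbn1 was 41.3% of the Ltbp3 level in NC and 24.0% of it in KD.

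Fbn2, a fibrillin used chiefly in developing tissue, had 0 reads in each of the 6 libraries. Its gene is 10480 bases long as counted, and 3 reads, the number that a count of 0 allows, would have given 0.0155 to 0.0181 FPKM. Eln, which encodes the elastin precursor that makes up the core of elastic fibres, also had 0 reads in each library, with a limit of 0.0200 to 0.0234 FPKM. None of 76 cytosolic ribosomal protein genes in the same table was listed at 0.

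Efemp2 encodes fibulin-4, an assembly protein that brings lysyl oxidase to elastin. Efemp2 (ENSMUSG00000024909, plus strand of chromosome 19, 5473973 to 5481853) had 28.1, 29.4 and 31.1 FPKM in NC1 to NC3 and 38.4, 43.6 and 42.2 FPKM in KD1 to KD3. The lowest KD library was well above the highest NC library. The mean rose from 29.6 ± 1.49 to 41.4 ± 2.71 FPKM (SD, n = 3), 1.40 times, with a log2 difference of 0.47 (SE 0.07, limma adjusted p = 0.00480).

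Emilin1, a glycoprotein found between elastin and microfibrils that restrains the processing of TGF-beta precursors, had the largest SD relative to its mean among KD libraries. Emilin1 (plus strand of chromosome 5, 30913402 to 30921277) had 15.2, 15.8 and 15.2 FPKM in NC1 to NC3 and 16.8, 24.8 and 28.7 FPKM in KD1 to KD3. KD1 lay just above NC, at 1.09 times its mean, while KD2 and KD3 stood at 1.61 and 1.86 times. With all 6 libraries the log2 difference of 0.54 (SE 0.18) did not pass (limma adjusted p = 0.0663). Without KD1 it was 0.76 (SE 0.07, adjusted p = 0.000796), where 20.9% of all genes were called higher.

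Fbln5 encodes fibulin-5, which binds elastin and cell-surface integrins and is needed for elastic fibres in lung and skin. Fbln5 (minus strand of chromosome 12, 101746565 to 101819055) had 1.27, 1.12 and 0.986 FPKM in NC1 to NC3 and 0.422, 0.402 and 0.359 FPKM in KD1 to KD3. These values came from 141, 123 and 108 reads in NC and 54, 46 and 42 reads in KD, so the groups were well apart although counts were small. KD kept 35.1% of the NC mean (1.13 ± 0.142 and 0.394 ± 0.0322 FPKM, SD, n = 3). Its mean over the 6 libraries, 0.760 FPKM, was under the filter of 1 FPKM. With no filter limma gave a log2 difference of -0.61 (SE 0.09, adjusted p = 0.0167), where 5.37% of 28280 genes were called lower, and it also passed with no filter and without KD1, where 7.82% were. The pseudocount of 1 shrinks that value: voom on the recovered reads of genes with a mean of at least 10 reads gave -1.50 (SE 0.18, adjusted p = 0.000366), where 14.9% of 14270 genes were called lower. Transcripts of the related fibulin-4 and fibulin-5 were thus on opposite sides, the first higher and the second lower in KD.

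By level per length the order in NC was Ltbp3, Efemp2, Ltbp4, Fbn1, Emilin1, Ltbp1, Ltbp2 and Fbln5, followed by Eln and Fbn2 at 0. Efemp2 and Ltbp4 overlapped over the NC libraries, and the other expressed neighbours in that order were apart. In KD the order was Ltbp3, Ltbp4, Efemp2, Emilin1, Fbn1, Ltbp1, Ltbp2 and Fbln5. Here Ltbp4 was above Efemp2 in each library, and Emilin1 overlapped Fbn1.

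All 7 tested members had GC contents above the median, and the trend with GC content ran in opposite directions among the KD libraries. Across 12282 genes the deviation of a library from the mean of all 6 had a Spearman correlation with GC content of -0.41 in KD1, 0.34 in KD2, 0.49 in KD3 and -0.24 to -0.04 in NC, genes not being independent replicates. The longest transcripts of Ltbp4, Emilin1, Ltbp2, Ltbp3 and Efemp2 had 62.2%, 61.1%, 58.5%, 58.3% and 54.1% GC, where the median tested gene had 49.3%, and those of Ltbp1 and Fbn1 had 52.7% and 52.3%. In KD1 Ltbp4 was 2.08 times, Ltbp3 1.41 times and Efemp2 1.30 times the NC mean, and the part of GC content in the differences was not tested. After a trend with GC content and length had been taken out of each library the log2 differences were 1.02 for Ltbp4 (limma adjusted p = 5.55e-05), 0.59 for Ltbp3 (8.73e-05) and 0.44 for Efemp2 (0.00106). Emilin1 passed at 0.44 (adjusted p = 0.0179), and Ltbp2 went to 0.05 (adjusted p = 0.618). With the trend removed 4 of the 7 tested members were higher and 1 lower, where 19.4% and 18% of all genes were.

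**Figure D3:**
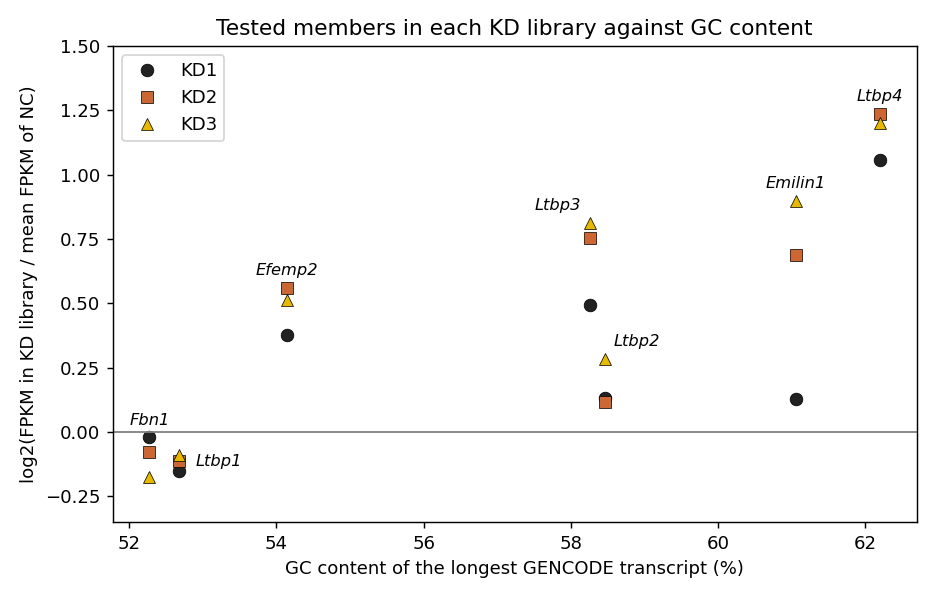
Ratio of each KD library to the NC mean (log2) for the 7 tested members against the GC content of their longest GENCODE M21 transcript (percent). Ltbp4, Ltbp3 and Efemp2 are above 0 in each KD library, KD1 (black circles) being the lowest of the 3 for these genes and for Emilin1, and Fbn1 and Ltbp1, at the lowest GC contents, are just under 0.

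**Figure D4:**
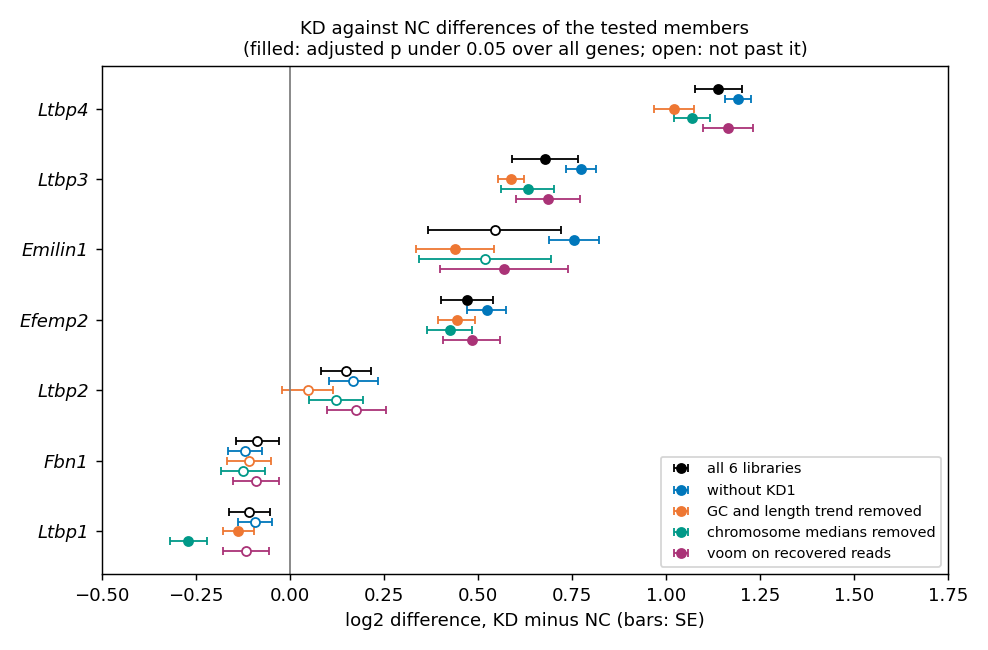
Fitted log2 differences (KD minus NC, bars are SE) of the 7 tested members with all 6 libraries and under 4 alternatives. Ltbp4, Ltbp3 and Efemp2 are past the threshold in each of the 5 fits drawn, Emilin1 in 3 of them and Ltbp1 in 2, while Ltbp2 and Fbn1 are past it in 0.

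Partners of the elastic fibre, beyond the 10 genes, moved in both directions. Of 34 such genes 20 were above the filter, 6 rose and 3 fell, with a median log2 difference of 0.14. Of all tested genes 10.9% rose and 13.6% fell, the latter close to the 3 of 20 here. Loxl1, a lysyl oxidase of elastic fibres, rose by 0.88 (75.9 to 141 FPKM), and the small proteoglycan gene Bgn by 1.29 (39.0 to 96.8 FPKM). Emilin2 and Loxl4, a relative of Emilin1 and another lysyl oxidase, rose from 31.4 to 48.9 and from 11.1 to 16.1 FPKM. Atp6v0a2, a proton pump subunit, and Adamts10, a fibrillin-binding protease relative, were the other genes that rose. Fbln2, another fibulin gene, fell by 0.71 (76.9 to 47.0 FPKM), and the proteoglycan gene Vcan fell by 1.58 (4.996 to 1.01 FPKM), as did the lysyl oxidase gene Loxl2 by a smaller 0.46. Limma adjusted p was at most 0.0348 for these 9 genes. Without KD1 10 of the 20 partners were higher and 4 lower, where 20.9% and 21.5% of all genes were. Without NC2, NC3 or KD2 4 were higher, where 4.8% to 5.29% of all genes were.

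Several classical microfibril components were at or near 0 FPKM. Mfap4 had 0 reads, and Mfap2, which encodes a glycoprotein bound along fibrillin microfibrils, had 0.0685 FPKM in NC and 0.0821 in KD. Mfap5, its relative, had 2.04 ± 0.331 and 1.34 ± 0.183 FPKM (SD, n = 3; limma adjusted p = 0.0685). Fbln1 had 0.0240 FPKM in NC and 0 in KD, and Lox, the main lysyl oxidase for elastin, had 0.0217 and 0.0478 FPKM. Efemp1, which encodes fibulin-3, was the most abundant partner in NC, with 142.5 FPKM there against 124 in KD (limma adjusted p = 0.164). Without KD1, Efemp1 passed as lower (-0.32, adjusted p = 0.00211), where 21.5% of all genes were called lower.

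The next list held 21 genes for TGF-beta ligands, for proteins that hold or release the latent form, and for relatives such as Thbs2. Of them 11 were above the filter, 4 rose and 1 fell, with a median of 0.25. Among all tested genes 10.9% rose and 13.6% fell. Lrrc32, a cell-surface docking protein for latent TGF-beta, had 5.86, 6.20 and 6.33 FPKM in NC1 to NC3 and 12.1, 12.2 and 13.1 FPKM in KD1 to KD3 (limma adjusted p = 0.000199). The serine protease gene Htra1 rose from 88.1 to 126 FPKM, Bmp1, a procollagen proteinase that also cleaves LTBPs, from 5.74 to 8.14 FPKM, and the integrin chain gene Itgb1 by 0.26 (limma adjusted p = 0.0458). Thbs2, a thrombospondin gene, fell from 24.0 to 13.8 FPKM. Without NC1, NC2, NC3 or KD2 only 2 of these genes were higher, where 4.8% to 5.29% of all genes were. Without KD1 7 were higher, where 20.9% of all genes were.

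TGF-beta receptors, SMADs and response genes were divided, with 5 higher and 5 lower among 17 tested and a median of 0.08. For all tested genes the shares were 10.9% higher and 13.6% lower. The matrix genes Col1a1 and Fn1 rose by 0.92 and 0.77. Tgfbr2, the type II receptor gene, rose by 0.50, and Smad3 and Tgfbr3 rose as well. The feedback gene Skil fell by 0.57, and Tgfbi, Bhlhe40 and Tgif1 were also lower. Limma adjusted p was at most 0.0380 for the 10 genes called. Without NC1, NC2, NC3 or KD2 only 3 of the list were lower, where 7.5% to 7.99% of all genes were.

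Of the 14 growth factors and BMP receptors that fibrillin can store or that read such factors, only the receptors Bmpr1a (17.7 FPKM in NC and 15.3 in KD, limma adjusted p = 0.267) and Bmpr2 (4.35 and 4.86 FPKM, 0.625) were above the filter, with a median of -0.06 and 0 called. Without KD1, Bmpr1a passed as lower (adjusted p = 0.0185), where 21.5% of all genes were called lower. Bmp5 had a mean of 1.003 ± 0.111 FPKM (SD, n = 3) over NC and of 0.00979 ± 0.0170 over KD, under the filter as a mean over 6. Bmp5 passed limma with no filter (log2 difference -0.99, adjusted p = 0.00154), where 5.37% of all genes were called lower. Of the 8 integrin chains that bind fibrillin or fibulins 3 were tested: Itga5 fell from 34.9 to 24.2 FPKM, Itgb1 rose as given above, and Itgav did not pass (0.33, adjusted p = 0.0638). The Itgb1 call was lost without NC1, NC2, NC3 or KD2.

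Among genes that degrade elastin, inhibit that degradation or form the elastin receptor, 5 rose and 2 fell of 10 tested. Their median was 0.27, and of all tested genes 10.9% rose and 13.6% fell. The metalloproteinase inhibitors Timp2 and Timp1 rose by 0.94 and 0.57. The 3 lysosomal genes whose products or variants make up the elastin receptor complex, Ctsa, Neu1 and Glb1, rose from 23.25 to 31.25, from 4.16 to 5.63 and from 18.4 to 23.7 FPKM. The elastolytic cathepsin gene Ctsk fell from 11.3 to 7.30 FPKM and Ctsb by 0.23 on the log2 scale. Mmp12, Mmp3 and Mmp7 had 0 reads. Limma adjusted p was at most 0.0179 for these 7 genes. Leaving out NC1, NC2 or KD2 left 3 higher and 1 lower, where 4.8% to 5.08% of all genes were higher and 7.5% to 7.99% lower. Leaving out NC3 left 1 lower, where 7.98% of all genes were.

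**Figure D5:**
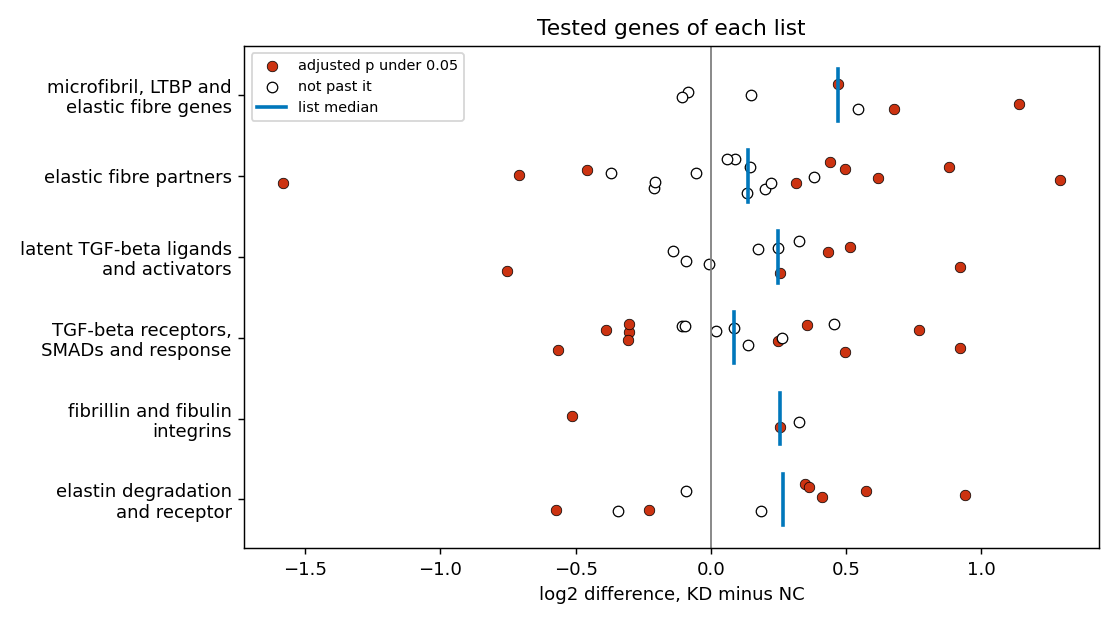
log2 differences (KD minus NC) of the tested genes in the members' list and 5 others, with red points past the threshold, open points not past it and a blue bar at each list's median. The medians are 0.47 for the 7 members and 0.08 to 0.27 for the other lists drawn, and each of those holds genes past the threshold on both sides of 0. The growth factor list, with 2 tested genes, 0 called and a median of -0.06, is not drawn, and the vertical scatter within a list carries no value.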

How the data were processed

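RNA of 3 NC and 3 calumenin KD libraries was read from both ends. HISAT2 2.0.5 was the aligner, per the labels' protocols, and mm10 the build, per the submitters' processing notes. What counted the reads, with which strand setting and which annotation, is not given in the sources used here. Per the file headers, FPKM per gene was what the authors deposited with gene position and length. Of the gene identifiers shared with GENCODE M21, 98.33% had the same coordinates.

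FPKM times length gave whole multiples of 1 step per library for 100% of values (tolerance 0.01), so reads were recovered. The library size implied by that step was 0.987 to 0.996 times the recovered reads in NC and 1.01 to 1.02 times in KD. The deposited FPKM were thus not scaled to the plain read sum. Groups came from the titles. The test was limma (3.58.1, under R 4.3.3) with an intensity trend, applied to log2(FPKM + 1) of genes whose mean reached 1 FPKM. Adjustment followed Benjamini-Hochberg, with calls at 0.05. SEs are moderated. Differences on that scale understate changes of low genes. GC content is of the longest GENCODE M21 transcript (99.86% of tested genes). The members and lists were chosen with earlier results of these data known. Named genes are the members, Calu, and from each list up to 4 called genes with the largest difference, or the 2 highest where none was called. Relatives of members, other called genes, ligands and genes near 0 were named after their values were seen, and some results are not reported here. Alternatives changed the pseudocount, filter, scaling, moderation, test, gene set and libraries, or removed GC and length trends (splines with 5 degrees of freedom) or chromosome medians.

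Tested on data simulated for KD against NC (12299 genes), the fit found 46.3% of 1.5-fold changes, 85.1% of 2-fold and 95.5% of 4-fold changes, with 0.0992% of unchanged genes called. The simulated reads had the same scatter beyond counting error for every gene and library. They held no library that stood apart as KD1 did and no trend with GC content, so these rates may not hold for the real libraries. Plots were drawn with matplotlib 3.10.9 under Python 3.11.15, and tables with pandas 2.3.3.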

Additional observations from a re-analysis of the deposited data

How the results depend on the processing

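Ltbp4, Ltbp3 and Efemp2 were higher and past the threshold under each alternative run. Median-of-ratios scaling gave the same differences as the main fit (0.678 for Ltbp3 in both), so it was no separate check. Leaving out 1 library at a time put Ltbp4 between 1.10 and 1.19, Ltbp3 between 0.62 and 0.77, Efemp2 between 0.43 and 0.52 and Emilin1 between 0.39 and 0.76. Emilin1 passed in 7 of 23 alternatives, which were both voom fits, every fit without KD1, the removal of the GC and length trend, and protein-coding genes only. Over its alternatives the limma adjusted p ran from 0.000796 to 0.184. Ltbp2 turned to -0.012 (adjusted p = 0.885) with the GC and length trend removed and KD1 left out, and Fbn1 passed as lower there (-0.16, adjusted p = 0.0232), an alternative chosen after seeing the data, as were voom at a mean of 10 reads and no filter without KD1.

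Members called lower numbered 0 in the main fit. With all 6 libraries they numbered 1 (Fbln5) with no filter and with voom at a mean of 10 reads, where 5.37% and 14.9% of all genes were lower. They also numbered 1 (Ltbp1) with the GC and length trend or chromosome medians removed, where 18% and 10.9% were. With KD1 left out they numbered 1 (Fbln5) with no filter, where 7.82% of all genes were lower. With the trend removed and KD1 left out they numbered 2 (Ltbp1 and Fbn1), where 20.2% were. Over all genes, leaving out 1 library gave 590 to 2572 higher (4.8% to 20.9%) and 923 to 2648 lower (7.5% to 21.5%). Removing the GC and length trend gave 2386 higher. Leaving out 1 library gave 4 to 10 elastic fibre partners higher, 2 to 7 latent TGF-beta genes higher, 3 to 6 TGF-beta response genes lower, 0 to 1 growth factor genes lower, 0 to 2 integrin chains higher, and 3 to 6 genes higher and 1 to 3 lower for elastin degradation. With no filter 2 latent TGF-beta genes were higher, 1 growth factor gene lower and 0 integrin chains higher. There 3.51% of all genes were higher and 5.37% lower. With the GC and length trend removed 2 latent TGF-beta genes and 4 elastin degradation genes were lower, where 18% of all genes were. In that fit 8 TGF-beta response genes and 2 integrin chains were higher, where 19.4% of all genes were. With chromosome medians removed 3 TGF-beta response genes were lower and 0 integrin chains higher, where 10.9% and 9.62% of all genes were. Integrin chains higher numbered 0 with no intensity trend, where 10.7% of all genes were higher. They numbered 2 with voom and with protein-coding genes only, where 12% to 12.2% and 13.6% of all genes were higher. The cause of these shifts was not tested, except that fewer libraries or other gene sets were fitted where so named.

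With the replicate number as a block 0 integrin chains were higher and 1 elastin degradation gene lower. Over all genes 1050 (8.54%) were higher and 1383 (11.2%) lower there. Deviations of same-numbered libraries from their group means had correlations of 0.08, -0.04 and 0.15. Since KD1 stood apart from the other KD libraries, these values cannot decide whether the numbers pair the samples. Counted in reads in place of FPKM, the change in the share of the LTBP sum was 11.2 percentage points for Ltbp4, -0.464 for Ltbp3, -8.83 for Ltbp1 and -1.91 for Ltbp2, since reads weight long genes; the summed levels have another unit there and were not compared. Scaling moved the median of all genes by at most 0.024 on the log2 scale. Depth limits Fbln5, with 42 to 141 reads per library, and the genes near 0.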

Other observations

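Neighbouring genes gave a measure of how local the differences were. Over all tested genes 10.9% were higher and 13.6% lower, with a median log2 difference of 0.01. Of the 10 nearest tested protein-coding genes around Ltbp4 (5 on each side) 0 were called, with a median log2 difference of 0.02. Around Ltbp3 2 of 10 were higher, Pcnx3 and Cdc42ep2, with a median of 0.19. Around Efemp2 1 was lower, Fosl1, and 0 were higher, with a median of 0.28. Around Emilin1 4 of 10 were higher (Cenpa, Tmem214, Agbl5 and Atraid), with a median of 0.29. Around Ltbp1, itself slightly lower, 4 of 10 were higher (Yipf4, Birc6, Rasgrp3 and Crim1), with a median of 0.27. The tested genes of its chromosome 17 had a median of 0.17. Around Fbln5 2 were higher and 2 lower. Ltbp2 is overlapped by D030025P21Rik on the opposite strand, which had 0.0680 FPKM in NC and 0.282 in KD. These genes were named after their values were seen, and the differences between neighbourhoods were not tested.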
